A study of Mus musculus with 20 samples.

Results

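Cytochrome P450 genes were followed in mouse liver after knockdown of the small nucleolar RNA SNORA73. The members were the rows of the gene table whose mouse symbol begins with Cyp and a number, without pseudogenes, that exceeded a CPM (counts scaled to a common library size) of 0.5 in at least 4 of 20 libraries. Of 53028 rows in the table, 101 had such a symbol, 1 of them the opposite-strand transcript Cyp4x1os, and 63 passed (Cyp4x1os did not), among 13795 genes tested. The 38 that did not pass were low everywhere, and no library held more than 50 counts of any of them, the highest being Cyp2b9. Of the 63, 54 exceeded the minimum in all 20 libraries. The boundary ran between Cyp46a1, over the minimum in 6 libraries, and Cyp2b9, over it in 3 with at most 1.5 CPM before scaling. Cyp2c39 was over it in 7 libraries, all of total RNA, Cyp3a16 in 10, Cyp3a41a in 11 and Cyp1a1 in 12.

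The mice were chow-fed C57BL/6J males, given locked nucleic acid antisense oligonucleotides (LNA) against SNORA73 or against GFP, a sequence that mouse cells lack. The dose was 3 mg/kg into the peritoneum every other day for 3 injections, and livers were taken 2 days after the last. Mice were 8 weeks old when injections began in the description of the diet study and 10 weeks old in that of the ribosome work, where cycloheximide was given by tail vein shortly before death. GFP LNA went to mice 1, 2, 3, 8 and 9 and SNORA73 LNA to mice 4, 6, 10, 11 and 12. Each liver gave 1 library of total RNA from the lysate and 1 of RNA from the polysome fractions of a sucrose gradient, so 4 groups of 5 libraries were compared. Replicates are separate mice, and the 2 libraries of a mouse are not independent. The sample labels spell the target Snora37 and the text of the series SNORA73.

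The libraries held 14852951 to 42023390 estimated counts. Snora73a reached at most 2 counts and Snora73b at most 4 in any library, after selection of polyadenylated RNA, so the knockdown cannot be read here. Their host gene Snhg3 had a log2 fold change of 0.09 ± 0.185 (SE; 5 against 5 mice) in total RNA (FDR 0.927). The 5 hepatocyte markers summed to 32200 to 65400 CPM, whereas the 5 cholangiocyte markers summed to 9.96 to 54.9 CPM, with Krt19 and Krt7 at 0 in some libraries. The 6 sinusoidal endothelial markers summed to 116 to 143 CPM with GFP LNA and 141 to 155 with SNORA73 LNA in total RNA, and to 90.6 to 104 and 119 to 135 in polysome RNA. These sums overlapped in total RNA and not in polysome RNA. Of the 6, Stab2 alone passed in total RNA (log2 fold change 1.06, FDR 0.0484), where Lyve1 had -0.11 (FDR 0.958), and none passed in polysome RNA. Their part in the differences below was not tested. In such bulk tissue, fewer cells of a type and less RNA per cell cannot be told apart. The ranges overlapped for the 6 Kupffer markers, at 124 to 196 and 114 to 217 CPM in total RNA, and for the 5 stellate markers, at 218 to 291 and 189 to 271 CPM. In total RNA, mouse 10 (SNORA73 LNA) stood apart on the first principal component (59.6), mouse 11 (SNORA73 LNA) on the second (40.4) and mouse 9 (GFP LNA) on the third (-40.5). Values without mice 9 and 10 together are given for several members, and the closing section gives those without each single mouse. The study set aside a mouse of each group after a principal component analysis, and which ones is not given in the sources used here.

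Cytochromes P450 are haem enzymes that insert an oxygen atom from molecular oxygen into small molecules. Most sit in the endoplasmic reticulum and take electrons from NADPH through Por, and a few are mitochondrial and take them through Fdxr and Fdx1. In liver they make bile acids from cholesterol, degrade retinoic acid, hydroxylate fatty acids, and oxidize drugs, steroids and other foreign or endogenous compounds. Many are controlled by nuclear receptors (PXR, CAR, PPARα, retinoic acid receptors), by HNF4α and, in mice, by the sex-specific pulses of growth hormone.

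Promoter sequences were available from RefSeq (GRCm38.p6) for 47 of the 63 members, and a few are shown because the genes stand at the ends of the comparisons below. The 250 bases before each start were searched on both strands. The direct repeat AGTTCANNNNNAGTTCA, a retinoic acid response element, was held by 7 of 27025 genes (0.0259%), of which Cyp26a1 was the only member. Cyp26a1 degrades retinoic acid, and its last 100 bases before the start (chr19:37697708-37697807, plus strand) are shown with the repeat in capitals, where it reads on the opposite strand.
Cyp26a1: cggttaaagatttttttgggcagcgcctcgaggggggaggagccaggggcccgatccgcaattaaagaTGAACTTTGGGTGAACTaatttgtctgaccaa
The HNF4-type sequence CAAAGNNCA was held by 22 of the 47 members (46.8%) and 6.29% of all genes, and in Cyp26a1 it overlaps the repeat above. It is in capitals in groups of genes of 1 subfamily, picked for like values. Cyp2c37 and Cyp2c50 were below their total RNA level in polysomes, and Cyp2c40 and Cyp2c69 were among the lowest fold changes with SNORA73 LNA. Cyp2d9, Cyp2d10 and Cyp2d26 were above their total RNA level in polysomes. Other holders varied. In GFP LNA livers the log2 change of polysome over total RNA was -0.16 for Cyp2c67, 0.01 for Cyp2c68, 0.04 for Cyp2c70 and 0.55 for Cyp2d40. A link between the sequence and these values was not tested.
Cyp2c37: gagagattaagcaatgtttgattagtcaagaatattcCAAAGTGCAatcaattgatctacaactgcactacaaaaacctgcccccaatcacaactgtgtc
Cyp2c50: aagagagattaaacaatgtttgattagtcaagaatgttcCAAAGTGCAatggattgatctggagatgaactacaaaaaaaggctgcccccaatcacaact
Cyp2c40: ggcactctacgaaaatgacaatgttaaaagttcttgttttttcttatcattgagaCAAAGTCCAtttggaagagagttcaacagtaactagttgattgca
Cyp2c69: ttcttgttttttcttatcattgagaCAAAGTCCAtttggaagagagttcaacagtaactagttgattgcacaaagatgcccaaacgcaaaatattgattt
Cyp2d9: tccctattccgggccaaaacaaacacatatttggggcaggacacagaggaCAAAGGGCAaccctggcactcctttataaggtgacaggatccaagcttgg
Cyp2d10: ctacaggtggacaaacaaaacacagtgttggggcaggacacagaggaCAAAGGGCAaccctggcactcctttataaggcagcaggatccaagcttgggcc
Cyp2d26: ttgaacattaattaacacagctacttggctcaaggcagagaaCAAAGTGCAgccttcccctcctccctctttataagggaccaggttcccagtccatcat
These stretches lie at chr19:39992324-39992423 (plus) for Cyp2c37, chr19:40089579-40089678 (plus) for Cyp2c50, chr19:39812815-39812914 (minus) for Cyp2c40, chr19:39886770-39886869 (minus) for Cyp2c69, chr15:82452277-82452376 (plus) for Cyp2d9, chr15:82407195-82407294 (minus) for Cyp2d10 and chr15:82794246-82794345 (minus) for Cyp2d26. Over 250 bases, identity in a global alignment was 84.3% between Cyp2c37 and Cyp2c50, 77.5% between Cyp2c40 and Cyp2c69, 82.7% between Cyp2d9 and Cyp2d10 and 51.1% between Cyp2d9 and Cyp2d26, beside 48.9% for Cyp2c37 and Cyp2c40 of the same subfamily and 48.7% for Cyp2c37 and Cyp2d9 of different ones. Near-identical neighbours share reads, so within the Cyp2c, Cyp2d, Cyp3a and Cyp4a subfamilies the split of counts between paralogs is uncertain.

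The members took 1.45 to 2.64% of all counts in a library. Their share of total RNA was 2.33% ± 0.203 (SD, n = 5) in control mice. Mice given SNORA73 LNA had 2.00% ± 0.287 (SD, n = 5), and the ranges overlapped. Cyp3a11, a steroid and drug hydroxylase, and Cyp2e1, which oxidizes ethanol and ketones, gave 44.6 to 55.2% of the members' counts between them. Counts also grow with transcript length, for which no values were used, so levels are compared between groups and not between genes. Cyp3a11 (chromosome 5, 145854607 to 145879854) had 6597, 8876, 6069, 7748 and 8134 CPM in total RNA of GFP LNA mice 1, 2, 3, 8 and 9. It had 7683, 7924, 5145, 4911 and 5413 CPM in SNORA73 LNA mice 4, 6, 10, 11 and 12, an order kept for all values below. The groups overlapped, with 3 of 5 SNORA73 LNA mice under every control and the other two among the controls. Cyp2e1 had 4864, 4772, 4350, 3910 and 4702 CPM with GFP LNA and 3822, 4606, 3414, 4560 and 5002 with SNORA73 LNA, which also overlapped.

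Members differed in how steady they were among control livers. The SD of log2 CPM over the 5 GFP LNA total RNA libraries was 0.07 for Cyp2c23, Cyp2f2 and Cyp4v3 and 2.24 for Cyp4a14, and it was 2.03 for Cyp46a1. Male-predominant genes were well counted, with the 5 of that list (Cyp2d9, Cyp4a12a, Cyp4a12b, Cyp7b1, Cyp2u1) summing to 876 to 1510 CPM in control total RNA. Of the 9 female-predominant genes, 5 did not pass the minimum, and the list summed to 9.06 to 19.8 CPM in control total RNA and 5.04 to 11.4 with SNORA73 LNA. The study describes the mice as male. Cyp3a41a was listed at 0 counts in 3 total RNA libraries (mice 8, 9 and 12) and at 3 to 25 in all 10 polysome libraries. In these 3 libraries its close paralog Cyp3a41b, which did not pass the minimum, had 0.657, 0.725 and 0.469 CPM. Cyp3a41b had 0 to 0.0687 CPM in the other total RNA libraries. How reads were split between these paralogs was not tested.

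**Figure D1:**
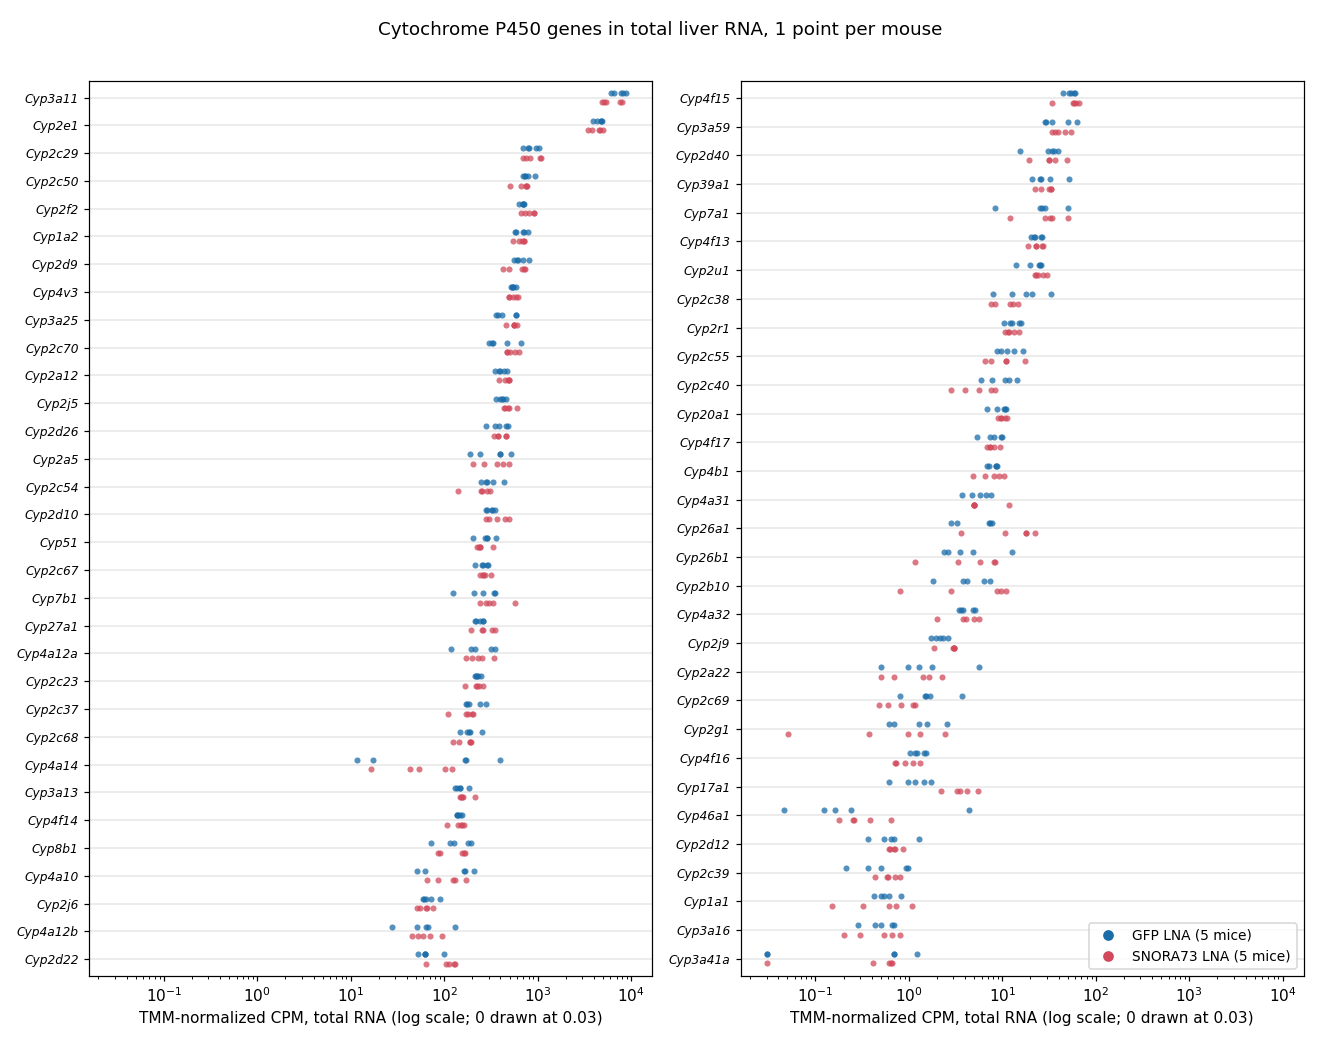
TMM-normalized CPM (log axis) of the 63 members in total liver RNA, 1 point per mouse, GFP LNA in blue and SNORA73 LNA in red, ordered by control mean. The clouds overlap for every member except Cyp17a1, and the widest spreads are those of Cyp4a14, Cyp46a1 and Cyp3a41a.

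In total RNA, no member passed the test for a difference between SNORA73 LNA and GFP LNA (0 of 63 at FDR under 0.05, edgeR's quasi-likelihood test), where 0.0290% of all genes tested did. At an unadjusted p under 0.05 stood 4 members with higher and 3 with lower values, 11.1% of members beside 8.66% of all genes. Limma-voom called 0 members and DESeq2 called 1, Cyp17a1 (1.59% of members beside 0.536% of all genes). The median log2 fold change of the members was 0.00, the same as over all genes, and 32 members had positive and 31 negative values. For 48 of 63 the 95% interval lay within ±1 on the log2 scale, beside 86% of all genes. Changes of more than 2-fold lay outside these intervals, and the median half-width of the members was 0.45. The smallest FDR of a member was 0.163. When libraries were scaled by their totals alone, the median of all genes moved to -0.14 and that of the members to -0.14, with 48 of 63 below 0. Values are therefore relative to the typical gene.

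Cyp17a1 makes androgen precursors in gonads and is low in liver. In total RNA it had 0.989, 1.71, 0.618, 1.44 and 1.16 CPM with GFP LNA and 2.20, 3.50, 4.20, 3.27 and 5.44 CPM with SNORA73 LNA. Every SNORA73 LNA liver was above every control, which was so for no other member in total RNA (1.59% of members, in either direction, beside 1.85% of all genes). The log2 fold change was 1.66 ± 0.290 (SE; 95% interval 1.03 to 2.29; FDR 0.163), a 3.17-fold ratio that did not pass. DESeq2 gave an adjusted p of 7.4e-05. In polysome RNA the values were 0.959, 2.71, 1.13, 1.25 and 1.24 CPM against 1.80, 5.41, 5.26, 4.90 and 8.45 CPM. Here control mouse 2 lay above SNORA73 LNA mouse 4, and the log2 fold change was 1.82 ± 0.379 (FDR 0.0943; DESeq2 adjusted p 0.000682). The gene lies on chromosome 19 from 46667165 to 46673000 and had 24 to 151 counts a library.

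Cyp26a1 clears retinoic acid and Cyp26b1 does the same. Cyp26a1 had 2.82, 7.15, 7.30, 7.80 and 3.26 CPM in control total RNA and 17.8, 17.7, 22.1, 10.7 and 3.57 CPM with SNORA73 LNA. Mice 4, 6, 10 and 11 were above every control and mouse 12 was among them. The log2 fold change was 1.33 ± 0.423 (FDR 0.375), and 0.99 without mice 9 and 10 (FDR 0.399). Cyp26b1 had a log2 fold change of 0.03 ± 0.531, with controls from 2.40 to 12.7 CPM and SNORA73 LNA livers from 1.15 to 8.38. Cyp2r1, a vitamin D 25-hydroxylase, had a log2 fold change of -0.08 ± 0.133. Thus of the 3 tested members of the retinoic acid and vitamin D list none passed.

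Cyp2d22 had 63, 63, 61.8, 51.9 and 99.7 CPM in control total RNA and 113, 128, 63.7, 104 and 129 CPM with SNORA73 LNA. The mice that crossed were control 9, which was the highest control, and mouse 10, the lowest of the other group. The log2 fold change was 0.66 ± 0.209 (FDR 0.375), and it was 0.99 without mice 9 and 10, where the gene passed (FDR 0.00268, edgeR's quasi-likelihood test). In polysome RNA it was 0.48 ± 0.187 (FDR 0.309), and 0.76 without these mice (FDR 0.0516). Mice 9 and 10 are the ones that crossed, so leaving them out removes the overlap by itself. In total RNA this setting also moved the calls over all genes, higher and lower, from 4 and 0 to 74 and 22.

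Among the 5 lowest fold changes in total RNA were 3 from the Cyp2c cluster on chromosome 19, and none of these 3 passed. Cyp2c40 and Cyp2c69 are female-predominant genes. Cyp2c40 had 10.7, 7.79, 11.7, 14.5 and 5.98 CPM in control total RNA and 2.79, 3.99, 7.53, 5.62 and 8.44 CPM with SNORA73 LNA. The groups overlapped, with 3 of 5 SNORA73 LNA livers below all controls. Its log2 fold change was -0.83 ± 0.296 (FDR 0.445) in total and -0.90 ± 0.256 (FDR 0.194) in polysome RNA, where DESeq2 called it (adjusted p 0.0444). Cyp2c69 had a log2 fold change of -1.12 ± 0.390 in total RNA, from 0.797 to 3.74 CPM in controls and 0.483 to 1.16 with SNORA73 LNA. Cyp2c38 had one of -0.73 ± 0.323, with controls from 8.01 to 33.3 CPM and SNORA73 LNA livers from 7.58 to 14.7. Over the 13 tested Cyp2c members, the median log2 fold change was -0.19 in total and -0.41 in polysome RNA, from -1.12 to 0.34 and from -0.94 to 0.11. No Cyp2c member passed in either.

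Bile acid synthesis is led by Cyp7a1, the rate-limiting enzyme of its classical pathway. Cyp7a1 had 8.42, 25.2, 26.3, 50.5 and 28.6 CPM in control total RNA and 12.1, 32.4, 33.7, 28.4 and 50.9 CPM with SNORA73 LNA. The ranges were nearly the same, and the log2 fold change of 0.19 ± 0.406 had an interval from -0.70 to 1.07. Cyp8b1, which sets the share of cholic acid, had -0.06 ± 0.271, and the mitochondrial Cyp27a1, which opens the alternative pathway, had 0.20 ± 0.153. Cyp7b1, the oxysterol hydroxylase of that pathway, had 0.42 ± 0.286, and mouse 10 was its highest at 567 CPM beside 242 to 334 CPM in the other SNORA73 LNA livers. Cyp2c70, which makes muricholic acids in mice, had 0.34 ± 0.203 (0.58 without mice 9 and 10, FDR 0.158), and Cyp39a1, another oxysterol hydroxylase, had -0.10 ± 0.221. None of the 7 members of this list, which also holds Cyp46a1, passed in total or polysome RNA. Cyp51, the lanosterol demethylase of cholesterol synthesis, had -0.14 ± 0.151 in total RNA.

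Cyp46a1, a cholesterol 24-hydroxylase mainly of brain, had the lowest fitted value of all members, and 1 control liver decided it. Its total RNA levels were 0.240, 0.124, 0.0458, 0.164 and 4.35 CPM in controls and 0.644, 0.385, 0.253, 0.256 and 0.180 CPM with SNORA73 LNA. Mouse 9 alone was high, with 120 counts in its total and 135 in its polysome library, whereas every other library had 0 to 14. The log2 fold change was -1.49 ± 1.06 with all mice and 1.26 without mouse 9.

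Among fatty acid hydroxylases of the Cyp4a subfamily, the known PPARα targets Cyp4a10 and Cyp4a14 varied widely between control mice, with log2 SDs of 0.93 and 2.24, beside 0.26 for Cyp4a32. Cyp4a14 had 169, 395, 17.3, 166 and 11.6 CPM in control total RNA and 16.6, 101, 42.7, 53.2 and 121 CPM with SNORA73 LNA. The controls alone spanned 34.1-fold and enclosed all of the other group. Its log2 fold change of -1.18 ± 0.807 ran from -1.51 to -0.44 as single mice were left out. Cyp4a10 was lowest in the same 2 control mice, with 168, 207, 51.0, 164 and 62.4 CPM, and its log2 fold change was -0.18 ± 0.376 (-0.53 without mice 9 and 10, FDR 0.617). Cyp4a12a, a male-predominant arachidonic acid hydroxylase, had 0.00 ± 0.268.

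None of the members best known from drug metabolism passed. Cyp1a2, a target of the aryl hydrocarbon receptor, had a log2 fold change of -0.04 ± 0.119 in total RNA, and Cyp1a1, of the same receptor, had 0.01 ± 0.402 at 0.152 to 1.07 CPM. Cyp2b10, the classical CAR target, had 4.19, 7.40, 1.81, 3.82 and 6.42 CPM in controls and 8.85, 9.72, 0.809, 2.81 and 11 CPM with SNORA73 LNA. SNORA73 LNA mice 4, 6 and 12 were above every control and mouse 10 was below all of them, and the log2 fold change was 0.50 ± 0.539, with an interval from -0.67 to 1.67 (0.92 without mice 9 and 10, FDR 0.426). Cyp2c29 had 0.03 ± 0.153, Cyp2f2 had 0.22 ± 0.109, Cyp2d9 had -0.11 ± 0.168, Cyp2e1 had -0.08 ± 0.125 and Cyp3a11, a PXR target, had -0.27 ± 0.167. The smallest FDR in this paragraph was that of Cyp2f2, 0.617.

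**Figure D2:**
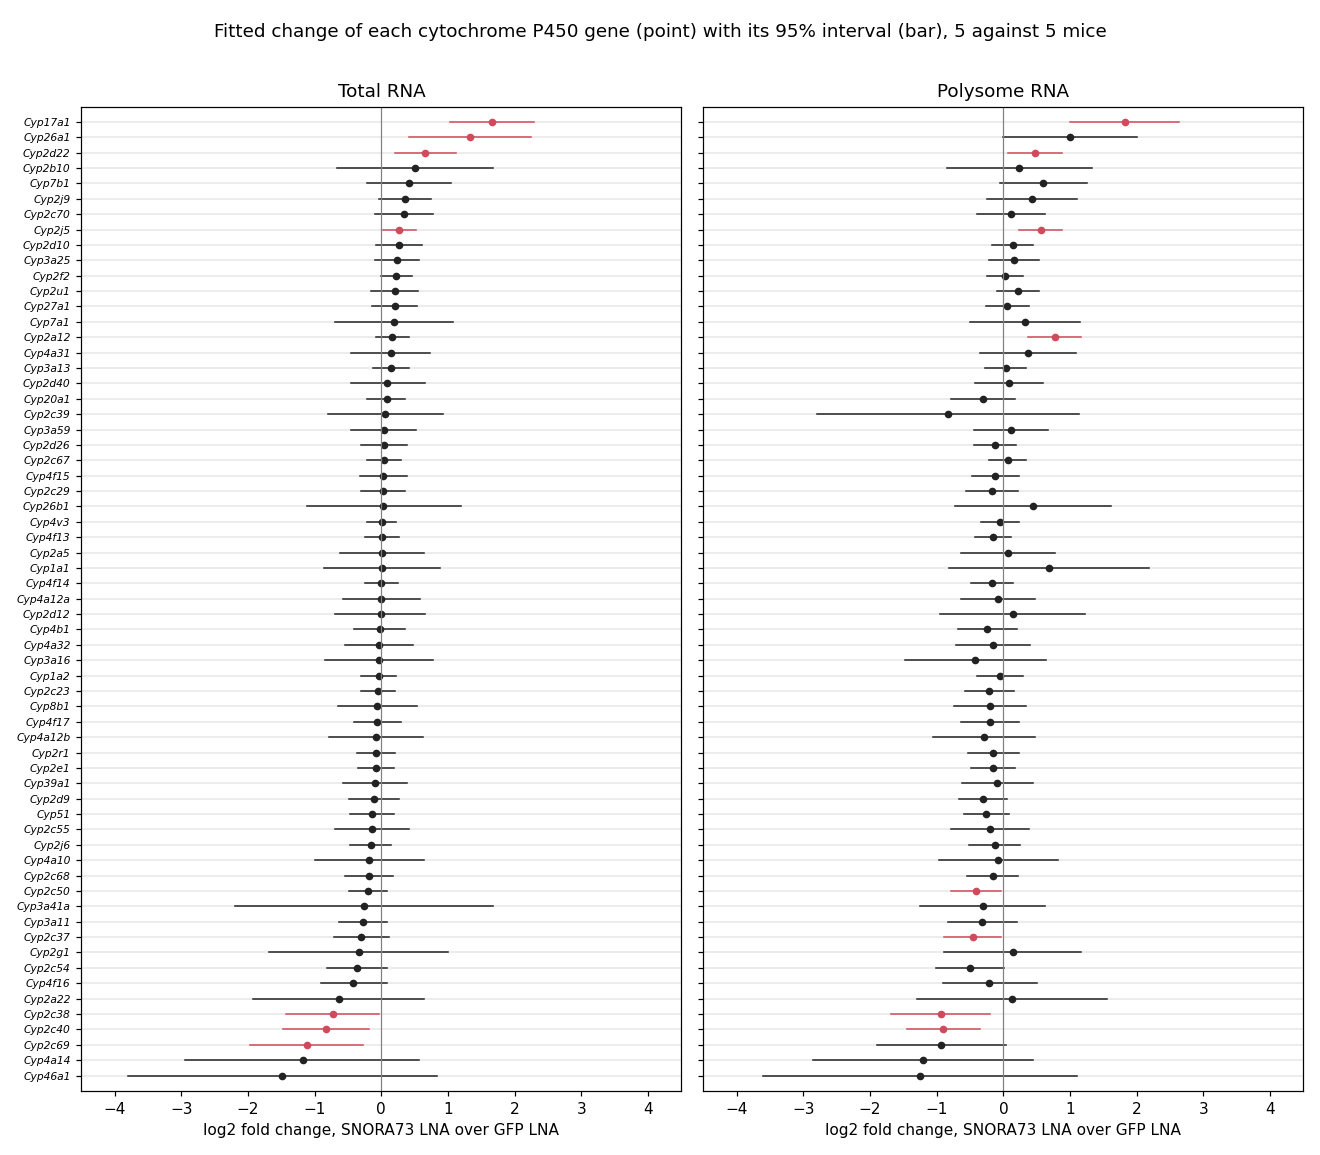
Fitted log2 fold change, SNORA73 LNA over GFP LNA, with its 95% interval for the 63 members in total RNA (left) and polysome RNA (right), 5 against 5 mice; intervals that exclude 0 are red. Cyp17a1 is at the top in both, at 1.66 and 1.82, most intervals cross 0, and no member passed after adjustment.

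In polysome RNA also, 0 of 63 members passed between the LNA groups (edgeR's quasi-likelihood test), where 0.0145% of all genes did. At an unadjusted p under 0.05 were 4 members with higher and 4 with lower values, 12.7% beside 13.2% of all genes. Limma-voom called 0, and DESeq2 called 4, with Cyp17a1, Cyp2j5 and Cyp2a12 higher and Cyp2c40 lower (6.35% of members beside 2.02% of all genes). The median log2 fold change was -0.12 beside -0.01 over all genes. For 40 of 63 the interval lay within ±1, beside 70.1% of all genes. These libraries come from the same livers as the total RNA, so they are no second set of mice.

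Cyp2a12, a steroid hydroxylase, had 366, 347, 316, 262 and 269 CPM in control polysome RNA and 499, 467, 364, 754 and 584 CPM with SNORA73 LNA. The groups touched, with mouse 10 just under control mouse 1. The log2 fold change was 0.77 ± 0.188 (FDR 0.141), beside 0.16 ± 0.112 in total RNA. Cyp2j5, an epoxygenase of arachidonic acid, had 320, 271, 231, 256 and 282 CPM in control and 353, 531, 385, 333 and 411 CPM in SNORA73 LNA polysome RNA. It was the only member whose groups did not overlap in polysome RNA (1.59% of members beside 3.18% of all genes), with a log2 fold change of 0.56 ± 0.147 (FDR 0.167). Cyp2c37 and Cyp2c50, with like promoters, had -0.46 ± 0.198 and -0.41 ± 0.170 in polysome RNA and -0.30 ± 0.190 and -0.20 ± 0.135 in total RNA. Cyp2c40, Cyp2j5, Cyp26b1, Cyp2d10, Cyp3a25, Cyp4v3, Cyp2c23, Cyp20a1, Cyp4f14, Cyp4a32, Cyp2d12, Cyp2c67, Cyp2c68 and Cyp2d40 are named after their values were seen.

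**Figure D3:**
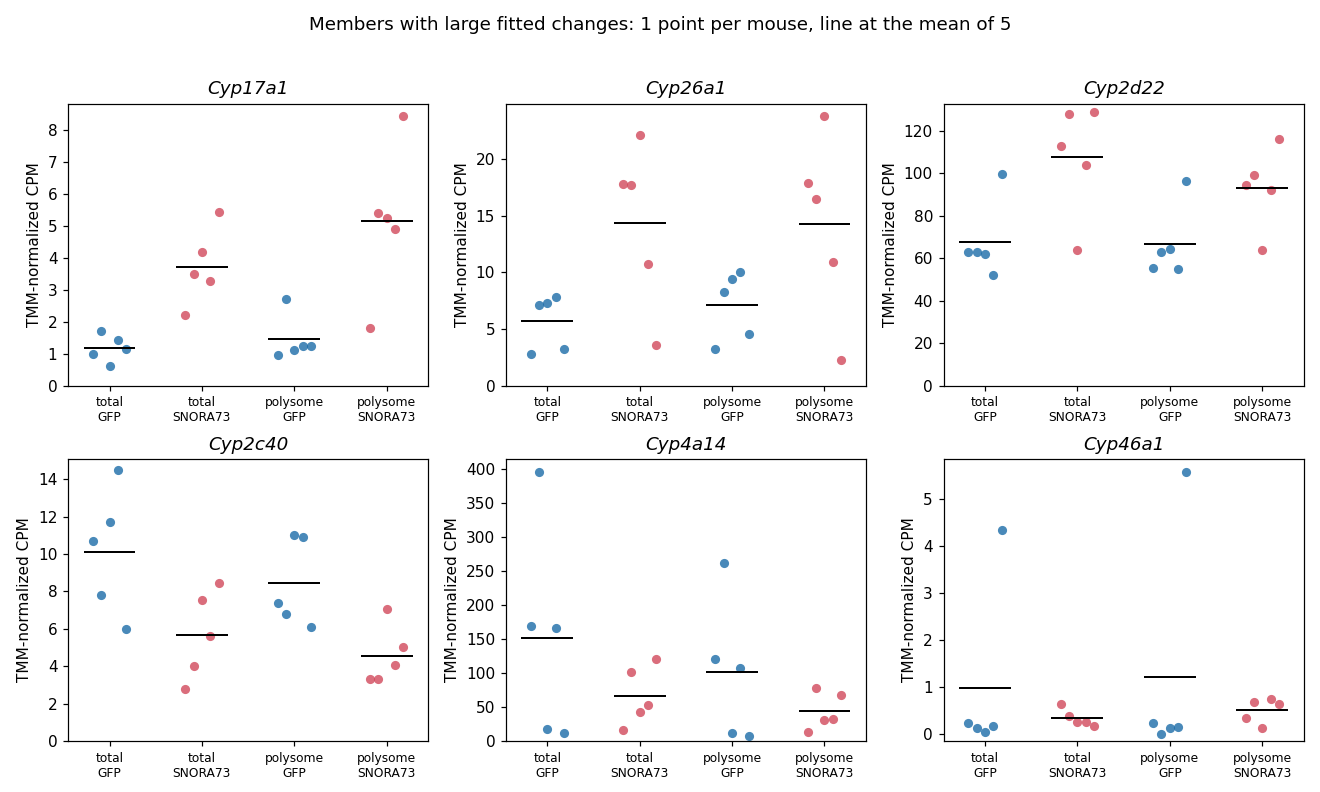
TMM-normalized CPM of Cyp17a1, Cyp26a1, Cyp2d22, Cyp2c40, Cyp4a14 and Cyp46a1 in the 4 groups, 1 point per mouse with a line at the mean of 5. Cyp17a1 separates the LNA groups in total RNA, Cyp4a14 is scattered in controls, and Cyp46a1 has a single high control mouse at 4.35 CPM in total and 5.58 CPM in polysome RNA.

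Whether a transcript's share in polysomes changed with the LNA was read from the difference between the polysome-over-total ratios of the LNA groups. No member passed (0 of 63, edgeR's quasi-likelihood test), where 0.00725% of all genes did, and limma-voom and DESeq2 called 0 members each. A single member, Cyp2a12, had an unadjusted p under 0.05. Its log2 ratio was -0.26, -0.45, -0.29, -0.58 and -0.39 in GFP LNA mice and 0.14, -0.06, -0.09, 0.61 and 0.27 in SNORA73 LNA mice. All control mice were thus below all treated mice. Ratios of the LNA groups did not overlap for 2 members (3.17%, beside 1.74% of all genes). The other was Cyp26a1, at 0.20, 0.20, 0.36, 0.36 and 0.46 in GFP LNA mice and 0.01, -0.10, 0.10, 0.02 and -0.62 in SNORA73 LNA mice, where the controls were higher. Its fitted difference was -0.32 ± 0.679 (FDR 1, and 0.514 with the replicate block). For Cyp2a12 the fitted difference was 0.60 ± 0.219 (FDR 1; with the mouse as a replicate block 0.57 ± 0.132, FDR 0.280). The median difference of the members was -0.07 and that of all genes -0.01. For 40 of 63 members the interval lay within ±1, beside 67.1% of all genes.

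Polysome and total RNA of the same livers did differ for several members, relative to the typical gene, since the scaling sets the middle of each library alike. The study purified total RNA on columns with a DNase step, and polysome RNA by precipitation, heparinase treatment and a cleanup. In these ratios, presence in polysomes and the manner of preparation therefore cannot be told apart. In GFP LNA livers, 6 members were higher in polysome RNA (9.52%; 21.8% of all genes) and 9 were lower (14.3%; 21.0% of all genes). In SNORA73 LNA livers, 2 were higher (3.17%; 19.7% of all genes) and 10 were lower (15.9%; 18.2% of all genes). A lower call in each group, Cyp2c39, follows from the minimum, which it passed through total RNA alone, and without it 8 and 9 of 62 were lower (22 and 24 with the block described next). With the mouse as a replicate block, which uses the pairing of the 2 libraries of a liver, the counts were 10 higher (15.9%; 28.9%) and 23 lower (36.5%; 27.2%) in GFP LNA livers. They were 7 higher (11.1%; 26.0%) and 25 lower (39.7%; 25.1%) in SNORA73 LNA livers. In both fits the members called higher were a smaller share than among all genes, and those called lower a larger share only with the block. Called in both LNA groups were 2 higher and 7 lower members, or 7 and 21 with the block, and none went opposite ways. Without Cyp2c39, 6 were lower in both. In the mice themselves, 17 members, Cyp2c39 included, were lower in polysome RNA in all 10 (27%; 19.2% of all genes) and 3 were higher in all 10 (4.76%; 20% of all genes). The median log2 ratio of the members was -0.14 in GFP LNA and -0.13 in SNORA73 LNA livers, beside 0.03 and 0.02 over all genes.

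Cyp7a1 fell in polysome RNA in every mouse. Its log2 ratio was -1.12, -1.01, -1.16, -1.40 and -1.61 with GFP LNA and -1.11, -0.72, -1.34, -1.19 and -1.33 with SNORA73 LNA. The fitted values were -1.30 ± 0.435 (FDR 0.0200) and -1.15 ± 0.435 (FDR 0.0416). Without mice 9 and 10 the FDR was 0.0691 and 0.110, and with all mice and the replicate block it was 2.77e-07 and 1e-06.

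Cyp2c50 and Cyp2c37 fell together. Cyp2c50 had log2 ratios of -0.83, -0.68, -0.65, -1.04 and -0.62 in controls and -0.93, -0.55, -0.89, -1.36 and -1.14 with SNORA73 LNA, fitted as -0.76 ± 0.155 (FDR 0.000541) and -0.97 ± 0.156 (FDR 5.84e-05). Cyp2c37 ranged from -0.85 to -0.53 in controls and from -1.22 to -0.48 in the other group, and it passed in both (fitted -0.70 and -0.86). Cyp2c39 had fitted values of -1.75 and -2.64 at 7 to 38 counts a library in total RNA and 0 to 8 in polysome RNA. It passed the minimum in 7 total RNA and 0 polysome libraries, so a lower polysome value was built in and is no result. Of the other 12 Cyp2c members tested, 2 were lower and 0 higher in controls and 3 and 0 with SNORA73 LNA (5 and 6 lower with the replicate block). Over all genes, 21.0% and 18.2% were lower in these groups (27.2% and 25.1% with the block).

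Cyp3a25, Cyp51 and Cyp4v3 were the other members lower in both groups without the block. Cyp51, at -0.31, -0.48, -0.50, -0.72 and -0.49 in controls, was below 0 in all 10 mice, as were Cyp3a25 and the steady Cyp4v3. Also without the block, Cyp2j5 and Cyp2a12 were lower with GFP LNA alone, and Cyp2c23, Cyp20a1 and Cyp4f14 with SNORA73 LNA alone. With the block, Cyp2j5 was lower with SNORA73 LNA too (FDR 0.0112), and Cyp2c23 (FDR 0.00706) and Cyp4f14 with GFP LNA. Cyp2a12 did not pass with SNORA73 LNA (FDR 0.131 with the block), nor Cyp20a1 with GFP LNA (FDR 0.214). Those calls say nothing of a difference between the groups, whose own test no member passed. Of the 8 members of the pericentral list, 3 were lower and 0 higher in each group, beside 21.0% and 18.2% of all genes lower. The Cyp4a subfamily, 6 members tested, had no call without the block and 5 lower in each group with it. With the block, 27.2% of all genes were lower with GFP LNA and 25.1% with SNORA73 LNA.

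On the other side stood some members of the Cyp2d subfamily on chromosome 15, but not Cyp2d22 (-0.02 and -0.21) or Cyp2d12 (-0.25 and -0.10). Cyp2d26 had log2 ratios of 0.56, 0.69, 0.47, 0.65 and 0.88 with GFP LNA and 0.39, 0.19, 0.53, 0.80 and 0.50 with SNORA73 LNA. It was higher in polysome RNA in every mouse, with fitted values of 0.64 ± 0.149 (FDR 0.00160) and 0.48 ± 0.148 (FDR 0.0147). Cyp2d9 and Cyp2d10 rose with GFP LNA (0.57 ± 0.169, FDR 0.0100, and 0.49 ± 0.148, FDR 0.0108). Their values with SNORA73 LNA were 0.38 ± 0.169 (FDR 0.0857) and 0.36 ± 0.148 (FDR 0.0584), which passed with the replicate block. Of the 6 Cyp2d members tested, 3 were higher and 0 lower in controls, and 1 and 0 with SNORA73 LNA. With the block, 4 and 0 were so in controls and 4 and 1 with SNORA73 LNA. Over all genes, 21.8% were higher in controls and 19.7% with SNORA73 LNA (28.9% and 26.0% with the block). Without the block, Cyp4f13 was the other member higher in both, at 0.52 ± 0.117 and 0.35 ± 0.117, whereas 7 members were so with the block. Cyp27a1 and Cyp2f2 rose with GFP LNA, by 0.41 ± 0.148 and 0.27 ± 0.108 on the log2 scale. With the block, Cyp27a1 also passed with SNORA73 LNA (0.28 ± 0.0755, FDR 0.00637), and Cyp2f2 did not (FDR 0.359). The highly counted Cyp2e1 had 0.15 ± 0.130 and 0.07 ± 0.130, and Cyp3a11 had -0.39 ± 0.218 and -0.43 ± 0.218, neither of which passed without the block.

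**Figure D4:**
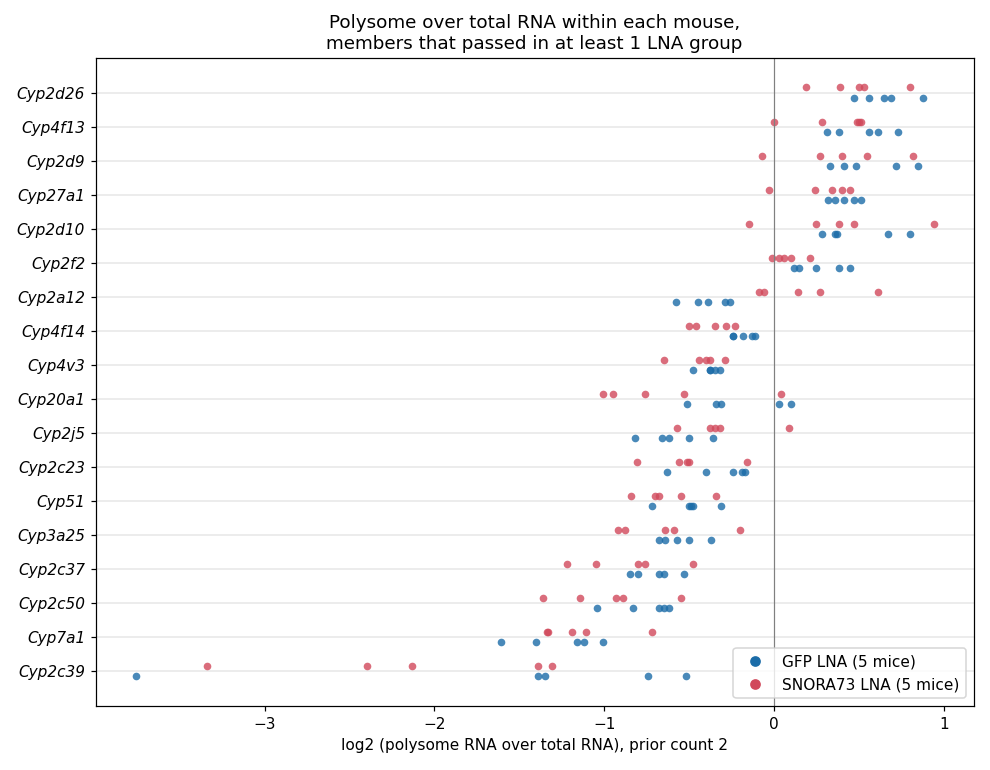
Log2 ratio of polysome over total RNA within each mouse (prior count 2) for the 18 members that passed in at least 1 LNA group, GFP LNA in blue and SNORA73 LNA in red. Cyp7a1, Cyp2c50 and Cyp2c37 lie below 0 in all 10 mice and Cyp2d26 above 0 in all 10, the colours of Cyp2a12 do not overlap (1.74% of all genes), and Cyp2c39 passed the minimum through total RNA alone.

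The partners of these enzymes gave a comparison outside the family. Of the 6 electron donors (Por, Cyb5a, Cyb5b, Cyb5r3, Fdx1, Fdxr), none passed between LNA groups in total or polysome RNA, and their medians were 0.00 and -0.08. Between polysome and total RNA, 3 were higher and 0 lower in each LNA group. For this and the 2 lists below, the shares over all genes were 21.8% higher and 21.0% lower with GFP LNA. With SNORA73 LNA they were 19.7% and 18.2%. Por itself had a log2 ratio of 0.42 with GFP LNA (FDR 0.142, and 0.000416 with the replicate block). Of the 16 receptors and regulators tested, none passed between LNA groups, and 2 were higher and 3 lower in polysome RNA in each LNA group. The aryl hydrocarbon receptor gene Ahr had a polysome-over-total log2 ratio of -1.91 with GFP LNA and -1.83 with SNORA73 LNA, and its target Cyp1a2 had 0.12 and 0.11. Of the 12 genes of haem synthesis and breakdown, 0 passed between LNA groups, while 8 were higher and 1 lower in polysome RNA of controls, and 6 and 2 with SNORA73 LNA.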

How the data were processed

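Total and polysome RNA of 10 livers, 5 per LNA group, were sequenced in 20 libraries after poly-A selection. The authors trimmed reads with fastp, removed ribosomal RNA reads by alignment, quantified transcripts with kallisto and summed them to genes with tximport, and deposited the resulting estimated counts. Of these, 14.3% were not whole, and all were rounded. The submitters' processing notes name Bowtie2, SAMtools and GRCm38. Symbols matched 51903 of 53028 gene IDs. Coordinates and promoters are from RefSeq.

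Genes with CPM over 0.5 in at least 4 of 20 libraries were kept. Differences were tested with edgeR 4.0.16 (TMM, quasi-likelihood test, R 4.3.3), with FDR (Benjamini-Hochberg) over all 13795 genes and calls at 0.05. Each LNA comparison used its own 10 libraries, and the polysome-over-total comparisons came from 1 fit of all 20. Limma 3.58.1 (voom, the study's method) and DESeq2 1.42.0 were alternatives, beside other scalings, filters, left-out mice and a replicate block. Printed CPM are TMM-scaled over all 20 libraries, except in the minimum, and ratios per mouse use a prior count of 2. The 2 libraries of a liver carry the same mouse number, and their deviations from group means correlated at 0.126 to 0.579 in all 10 pairs. Between different mice of a group the highest such correlation was 0.246. In 8 of the 10 mice the total RNA library correlated best with the polysome library of its own number. The code was tested on simulated data without a mouse effect shared by the 2 libraries of a liver, so the pairing was not tested there.

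Genes named were a fixed set of known liver P450 genes, the 3 highest and 3 lowest in each LNA comparison, up to 4 at either end among those called in both polysome comparisons, and the 5 with most counts. Counts per kilobase were planned for the last, but CPM was used since no transcript lengths were at hand. The members and lists were chosen with earlier results of these data known.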

Additional observations from a re-analysis of the deposited data

Results flagged for a closer look

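Among 124 sets of 5 libraries (31 named members in 4 groups), 9 held a library far from the other four. About 1 in 20 does by chance where values are normally distributed. CPM were used here without a log, and 8 of the 9 were the highest library of their set. Of the 9, 5 were in mouse 9, 3 in mouse 10 and 1 in mouse 2, so they are not independent. In GFP LNA mouse 9, Cyp46a1 was at 4.35 CPM in total RNA (next 0.240) and at 5.58 CPM in polysome RNA (next 0.240). In the same mouse Cyp2d22 was at 99.7 CPM in total RNA (next 63) and at 96.5 CPM in polysome RNA (next 64.5), and Cyp2f2 was lowest in total RNA at 637 CPM (next 700). In SNORA73 LNA mouse 10, Cyp7b1 was at 567 CPM in total RNA (next 334) and at 652 CPM in polysome RNA (next 356), and Cyp51 was at 335 CPM in total RNA (next 242). In GFP LNA mouse 2, Cyp17a1 was at 2.71 CPM in polysome RNA (next 1.25).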

How the results depend on the processing

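Between LNA groups in total RNA, the count of members called higher went from 0 to 1 with DESeq2, with no filter beyond 1 count and without mice 9 and 10. Over all genes the calls, higher and lower, were 4 and 0, and 49 and 25, 10 and 3, and 74 and 22 in these settings. In polysome RNA it went from 0 to 3 with DESeq2 (and 1 lower), to 1 with no filter and to 3 with 1 fit of all 20 libraries. Calls also rose over all genes, from 2 and 0 to 229 and 49, 66 and 6, and 242 and 75. Leaving out single mice kept both at 0, and the change in polysome loading stayed at 0 under all alternatives run. DESeq2 gave no adjusted p for 6 members in total and 2 in polysome RNA. With the replicate block, members higher and lower in polysome RNA numbered 10 and 23 with GFP LNA and 7 and 25 with SNORA73 LNA. With the replicate block and without mice 9 and 10, chosen after seeing the data, 22 were lower with GFP LNA, and 5 were higher and 24 lower with SNORA73 LNA. The study's fold threshold (0.5 on the log2 scale) left 3 higher with GFP LNA and 0 with SNORA73 LNA. With SNORA73 LNA, 1 was higher with no filter, without mice 9 and 10, and with only that group's 10 libraries. Leaving out single mice gave 3 to 6 higher and 6 to 12 lower with GFP LNA (3 without mouse 9), and 0 to 4 higher and 6 to 12 lower with SNORA73 LNA (higher 4 without mouse 6, 1 without mouse 10 or 12 and 0 without mouse 11, lower 6 without mouse 11).

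Signs turned only for members that did not pass. In total RNA the log2 fold change was -0.16 for Cyp1a1 and 0.44 for Cyp46a1 with limma-voom. It was 0.00 for Cyp4a12a with DESeq2 and with its size factors. By library totals it was -0.11 for Cyp1a1, -0.11 for Cyp2c29 and -0.14 for Cyp4a12a. It was -0.01 for Cyp1a1 and -0.01 for Cyp4a12a with no filter, and -0.01 for Cyp4a12a at CPM over 1 in all 20 libraries. Without mice 9 and 10 it was 0.09 for Cyp1a2, 0.03 for Cyp2d9, 0.01 for Cyp2e1 and 1.35 for Cyp46a1. In polysome RNA it was -0.11 for Cyp2b10, 0.86 for Cyp46a1 and 0.01 for Cyp4a10 with limma-voom. By library totals, which moved the median of all genes to -0.16, it was -0.10 for Cyp27a1, -0.02 for Cyp2c70 and -0.12 for Cyp2f2. Without mice 9 and 10 it was 0.17 for Cyp1a2, 2.12 for Cyp46a1 and 0.18 for Cyp4a12a. Leaving out single mice, total RNA ranges were -0.29 to 0.24 for Cyp1a1, -0.09 to 0.03 for Cyp1a2, -0.05 to 0.11 for Cyp2c29, -0.22 to 0.16 for Cyp39a1, -1.82 to 1.26 for Cyp46a1, -0.39 to 0.05 for Cyp4a10, -0.17 to 0.18 for Cyp4a12a, -0.06 to 0.51 for Cyp7a1 and -0.22 to 0.10 for Cyp8b1. Polysome RNA ranges were -0.11 to 0.08 for Cyp1a2, -0.06 to 0.15 for Cyp27a1, -0.01 to 0.37 for Cyp2c70, -0.02 to 0.10 for Cyp2f2, -0.23 to 0.16 for Cyp39a1, -1.57 to 1.86 for Cyp46a1, -0.33 to 0.17 for Cyp4a10 and -0.23 to 0.17 for Cyp4a12a. The cause was not tested.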
